A study of Homo sapiens with 18 samples.

Results

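The 81 genes described here encode proteins of the cytosolic ribosome. They were taken from the gene symbols alone, as RPL or RPS followed by a number and at most 1 of the letters A, X or L, together with RPLP0, RPLP1, RPLP2 and RPSA. All 81 were listed in each of the 3 deposited tables, among 25673, 25540 and 25557 genes. By name, 49 belong to the large subunit (RPL and RPLP symbols) and 32 to the small subunit (RPS symbols and RPSA). The rule also takes in the paralogs RPL3L, RPL10L, RPL39L and RPS27L, and it leaves out other genes, of which FAU, RPL22L1, RPL26L1, RPL7L1 and RPL36AL were followed beside the members.

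Transcriptomes of 2 triple-negative breast cancer lines were sequenced, with 6 groups and 3 libraries from triplicate cultures in each, 18 in all. BT-549 cells stably expressed an shRNA against PBRM1 (a subunit of the PBAF chromatin remodeler) or against IRF1 (a transcription factor of the interferon response), and a separate control shRNA group accompanied each of these. MDA-MB-436 cells, which carry a BRCA1 mutation, held a tetracycline-inducible shRNA against MUC1 (a transmembrane mucin) and received DOX at 500 ng/ml or 0.1% DMSO as vehicle. The p-values rest on the spread among triplicate cultures of 1 line, which for deposited BT-549 values was shared by genes of similar level. DOX given to cells with a control shRNA was not analysed here, so DOX itself and MUC1 silencing cannot be told apart. On the scale without short noncoding RNAs described below, PBRM1 stood at 53.4, 51.5 and 53.6 TPM in controls and 13.3, 11.8 and 12.1 with PBRM1shRNA, IRF1 at 34.3, 35.3 and 37.4 against 8.94, 9.51 and 10.2 with IRF1shRNA, and MUC1 at 7.28, 5.65 and 6.54 with vehicle against 4.18, 3.09 and 3.12 with DOX, so each target was lower in every silenced library. ESR1 and PGR, markers of hormone receptor-positive tumors, stayed at or below 0.12 TPM on that scale in all libraries. ERBB2, which encodes HER2, was not absent and lay between 13.5 and 26.7 TPM.

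The cytosolic ribosome translates nuclear-encoded mRNAs. Its small subunit decodes the message and its large subunit joins the amino acids, and each holds ribosomal RNA and a nearly fixed set of proteins present in single copies, apart from the acidic stalk proteins RPLP1 and RPLP2, which are bound in pairs to RPLP0. Ribosomal protein mRNAs are short, among the most abundant mRNAs of growing cells, and typically begin with a C followed by a run of pyrimidines, the 5′ terminal oligopyrimidine (TOP) tract, through which mTOR signaling and LARP1 control their translation and stability.

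RefSeq promoter sequences (GRCh38.p14) were matched to 64 of the 81 members. An annotated start base was a C followed by at least 4 further C or T in 46 of these 64 genes (71.9%), compared with 6.24% of 15843 protein-coding genes. These were 28 of 39 genes of the large subunit and 18 of 25 of the small subunit. Bases before the start were not examined, so runs that opened further upstream, as in RPS6 and RPLP0, were counted too. The following 30-base windows run from 10 bases before the annotated start to 20 bases from it on, and are shown for genes on which the results below turn, with all 3 listed starts of RPL13. Capitals mark the first match to a C followed by 4 or more C or T, read from a base within 5 bases of the annotated start.

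RPS6, chr9:19380217-19380246, minus strand: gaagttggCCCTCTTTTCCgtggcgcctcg
RPS21, chr20:62387093-62387122, plus strand: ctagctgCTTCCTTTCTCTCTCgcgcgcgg
RPS3A, chr4:151099618-151099647, plus strand: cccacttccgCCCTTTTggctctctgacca
RPSA, chr3:39406710-39406739, plus strand: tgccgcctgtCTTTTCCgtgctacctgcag
RPLP0, chr12:120201092-120201121, minus strand: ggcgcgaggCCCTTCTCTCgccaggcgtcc
RPL9, chr4:39458903-39458932, minus strand: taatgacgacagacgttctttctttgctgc
RPL13, start 1, chr16:89560647-89560676, plus strand: tgctatcatcccagagtgcattgcggggcc
RPL13, start 2, chr16:89560672-89560701, plus strand: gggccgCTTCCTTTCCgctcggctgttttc
RPL13, start 3, chr16:89560701-89560730, plus strand: cctgcgcaggaggtgagggagactgggtcc
RPLP1, chr15:69452808-69452837, plus strand: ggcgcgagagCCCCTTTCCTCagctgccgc
RPL22, chr1:6199576-6199605, minus strand: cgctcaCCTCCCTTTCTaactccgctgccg
RPL22L1, chr3:170870176-170870205, minus strand: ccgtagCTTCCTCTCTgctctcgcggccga
RPL36AL, chr14:49620607-49620636, minus strand: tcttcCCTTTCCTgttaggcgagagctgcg
RPS28, chr19:8321486-8321515, plus strand: gaagcacgtgaCTCCTCTCCgccagaccgc

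The tract was 15 bases long in RPS21 and 7 bases long in RPS3A and RPSA. In the window of RPL9 and those of RPL13 starts 1 and 3, none opened within 5 bases of the start. The RPL9 window held such a run only further downstream. RPL22L1, which lies outside the rule, also opened a tract in this range. In RPL36AL, likewise outside it, the capitals cut a longer run of C and T that began further upstream. The first matched base was also allowed within 5 bases of the start, whatever came before it. In that range 53 of the 64 members matched, compared with 28.0% of coding genes. In the 300 bases around the start, searched on both strands, CCGGAAG occurred in 23 of 64 members (35.9%) and in 16.5% of coding genes, CTCGCGAG in 6 members (9.38%) and 1.80% of coding genes, and AAGATGGC in 6 members (9.38%) and 4.66%. GGGCGG was found in 38 members (59.4%, 64.3% of coding genes), TATAAA in 6 (9.38%, 12.4%) and GAAANNGAA, found within interferon-responsive elements, in 12 (18.8%, 9.22%). These matches describe letters and not occupied sites.

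Because TPM is scaled to a fixed total, the level of the ribosomal protein mRNAs depends on what else is counted. Short noncoding RNAs, mainly RN7SL1, RN7SL2, RN7SK and, in PBRM1 libraries, SNORD3A, took a large part of TPM. Their share was 75.5% to 79.2% in PBRM1 libraries, 84.8% to 88.5% in IRF1 libraries and 12.02% to 15.2% in those of MDA-MB-436. Values were therefore analysed as deposited and after these RNAs were left out and each library was rescaled to 1000000, called rescaled TPM below. How deeply each library was sequenced is unknown, since TPM keeps no total. TPM divides by gene length, so these shares are not shares of reads. In the authors' mean normalized counts, short noncoding RNAs held 9.84% (PBRM1), 4.77% (IRF1) and 0.461% (MUC1). The members held 3.48%, 4.36% and 2.50% of those counts. The scale did not alter the ratio between members of 1 library. The median log2 fold of all genes tested was -0.05 as deposited and -0.17 rescaled for PBRM1shRNA, -0.06 and 0.03 for IRF1shRNA, and 0.02 and 0.00 for DOX. The filter of 1 TPM was applied on each scale, so more genes were tested after rescaling. They numbered 10639 and 12701 for PBRM1shRNA, 9135 and 12727 for IRF1shRNA, and 13229 and 13402 for DOX. Medians and shares of all genes on the 2 scales therefore cover different genes.

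The members together made up 12.4%, 12.9% and 12.6% of rescaled TPM in the BT-549 control libraries of the PBRM1 experiment and 15.1%, 15.2% and 15.6% in the PBRM1shRNA libraries. The groups did not overlap, and the summed level was 1.21 times that of controls. In the IRF1 experiment the members took 16.3%, 16.8% and 16.9% in controls and 19.2%, 19.1% and 18.6% after IRF1 silencing, again without overlap and 1.14 times the control level. In MDA-MB-436 cells the shares were 10.5%, 10.3% and 10.7% with vehicle and 10.4%, 10.2% and 10.3% with DOX, and the groups overlapped.

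On the deposited scale the ribosomal protein share was 2.69% to 2.97% in controls and 3.47% to 3.83% with PBRM1shRNA, which did not overlap either. For IRF1 the deposited shares were 2.49%, 2.13% and 2.05% in controls and 2.21%, 2.62% and 2.16% after silencing, so that the difference seen on the rescaled values was within the spread of the libraries. The short noncoding RNA share moved over the same libraries, from 84.8% in control library 1, which had the highest deposited ribosomal protein share of its group, to 88.5% in IRF1shRNA library 1, and its part in the result was not tested beyond the rescaling. In MDA-MB-436 the deposited shares were 9.05% to 9.15% with vehicle and 8.93% to 9.06% with DOX.

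**Figure D1:**
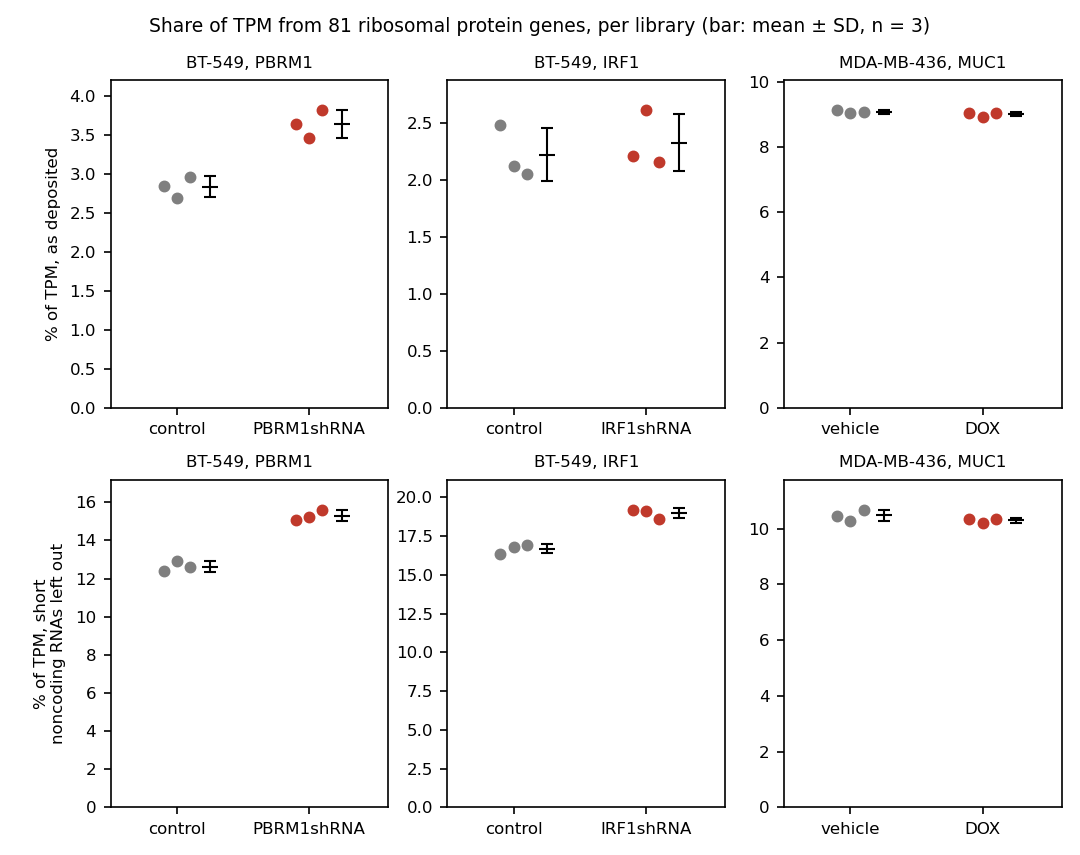
Share of TPM contributed by the 81 ribosomal protein genes in each library (points; y axis in percent of TPM, from 0), as deposited in the upper row and without short noncoding RNAs in the lower row, with mean ± SD of 3 libraries. PBRM1shRNA libraries lie above their controls in both rows, IRF1shRNA libraries (18.6% to 19.2%) above theirs (16.3% to 16.9%) only in the lower row, and DOX and vehicle libraries overlap.

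The balance between the subunits does not depend on the scale. The summed TPM of the large subunit divided by that of the small subunit was 1.47, 1.50 and 1.49 in the BT-549 controls of the PBRM1 experiment and 1.39, 1.40 and 1.38 with PBRM1shRNA. In the IRF1 experiment it was 1.44, 1.44 and 1.43 in controls and 1.38, 1.38 and 1.36 after silencing. In both experiments every silenced library lay below every control library, a mean difference of -0.096 (control SD 0.016, silenced SD 0.014, n = 3) for PBRM1 and -0.059 (SD 0.0032 and 0.010) for IRF1. The order held when RPS28, RPS21, RPS6, RPL37A or RPS4X, all abundant members, was left out in turn. Small-subunit mRNA was thus higher by a larger factor than large-subunit mRNA in both: on rescaled values the small-subunit sum was 1.26 times and the large-subunit sum 1.18 times the control level with PBRM1shRNA, and 1.17 times and 1.12 times with IRF1shRNA. 

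In MDA-MB-436 cells the ratio was below 1, at 0.84, 0.83 and 0.85 with vehicle and 0.81, 0.80 and 0.83 with DOX. One DOX library lay within the vehicle range, so the groups overlapped. Without RPS28, a small-subunit protein of the mRNA exit region and the most abundant member in this line, the ratio was 1.01 to 1.02 with vehicle and 0.96 to 0.99 with DOX, with no overlap. The groups were also apart without RPS6, and they overlapped without RPS21, RPL37A or RPS4X. A ratio over many genes was given no test.

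**Figure D2:**
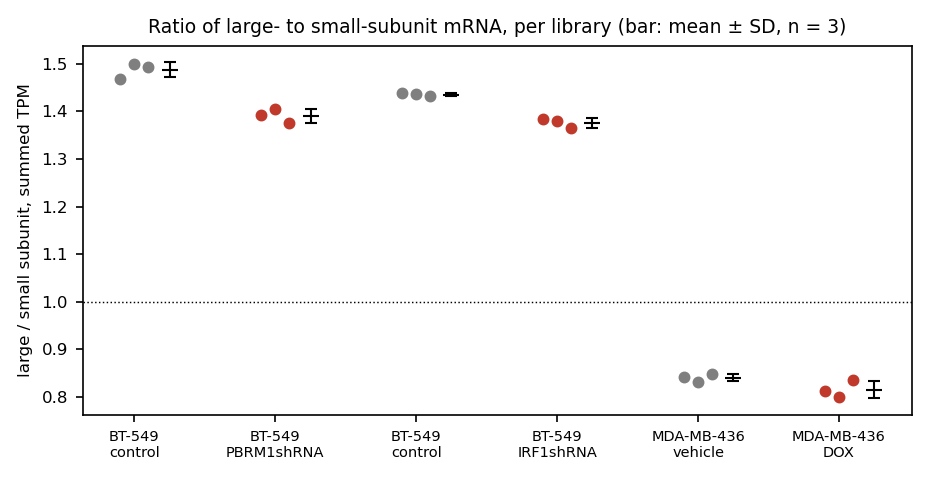
Ratio of the summed TPM of 49 large-subunit genes to that of 32 small-subunit genes in each library (points), with mean ± SD of 3 libraries; the dotted line marks a ratio of 1 and the y axis does not start at 0. Silenced BT-549 libraries (1.36 to 1.40) lie below their controls (1.43 to 1.50), and both MDA-MB-436 groups lie below 1.

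Gene by gene, PBRM1 silencing was accompanied by a broad rise. As deposited, 66 of 78 tested members were higher and 0 lower at an adjusted p under 0.05 (limma, two-sided, Benjamini-Hochberg over all genes tested), where 24.6% of all tested genes were higher and 34.8% lower. On rescaled values 67 of 79 were higher and 1 lower, compared with 22% and 50.7% of all genes. At an unadjusted p under 0.05 the deposited scale gave 69 members. The median log2 fold of the members was 0.35 as deposited and 0.27 rescaled, beside -0.05 and -0.17 for all genes tested. In the large subunit 37 of 46 members rose as deposited (median 0.31), and in the small subunit 29 of 32 (median 0.43).

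RPS21, a small-subunit protein that binds RPSA, had the largest fold in the PBRM1 experiment. Its rescaled TPM was 3416, 3703 and 3615 in controls and 5349, 5319.6 and 5723 with PBRM1shRNA, and the groups lay far apart. The log2 fold was 0.61 (SE 0.045, adjusted p = 1.39e-07) rescaled and 0.70 (SE 0.083) as deposited. RPSA, the laminin receptor-related protein of the small subunit, measured 744, 783 and 739 in controls and 1106, 1041 and 1157 with PBRM1shRNA, a log2 fold of 0.54 (SE 0.044). RPS3A, a protein of the small-subunit platform, stood at 512, 533 and 524 in controls and 756, 753 and 836 in silenced libraries, a log2 fold of 0.58 (SE 0.044). All 3 genes rose without overlap on both scales, as did RPS29, which was far less abundant (43.3 to 47.8 rescaled TPM in controls, 62.4 to 67.9 silenced).

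In the large subunit, RPL5, which with RPL11 and 5S rRNA forms the particle that can bind MDM2, led the rise. Its rescaled TPM was 1663, 1688 and 1717 in controls and 2486, 2532 and 2635 with PBRM1shRNA, with a log2 fold of 0.59 (SE 0.037, adjusted p = 2.81e-08). RPL11 also rose, from 1742, 1809.9 and 1734 to 2151, 2378 and 2322, a smaller log2 fold of 0.37 (SE 0.043). RPL7 rose by 0.53, RPL23 by 0.52 and RPL9 by 0.47 on the log2 scale after rescaling, each with every silenced library above every control. Of the stalk, RPLP0 rose by 0.42 (SE 0.039), RPLP2 by 0.26 (SE 0.040) and RPLP1 by 0.20 (SE 0.036).

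Other members with well-known roles rose by less than RPS21 and RPL5. RPS6, the substrate of S6 kinase, rose by 0.30 and RPS4X, the X-linked form of RPS4, by 0.45 (rescaled log2 fold). RPS27A, made as a fusion with ubiquitin, rose by 0.34 and RPL13A, known for an extraribosomal role in interferon-induced translational silencing, by 0.22. RPL10, at the tRNA-binding face of the large subunit, rose by 0.15 (under quantile scaling it was at -0.0424, adjusted p = 0.297), and RPL41, the smallest ribosomal protein, by 0.16 with overlapping groups.

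A few members did not follow. RPL13 was the 1 member that fell on rescaled values: 319, 319.96 and 303 in controls and 272, 271 and 264 with PBRM1shRNA, with no overlap and a log2 fold of -0.22 (SE 0.036, adjusted p = 1.19e-04). As deposited its fold was -0.14 (adjusted p = 0.163), and with the library number as a replicate block RPL13 was lower on that scale too, while 3 members (RPL13, RPL36A and RPS27L) were lower on rescaled values. Among the members not past the test on either scale were RPL12, RPL17, RPL19, RPL26, RPL28, RPL29, RPL37, RPS18 and RPS27L. With the replicate block RPL17, RPL19, RPL26, RPL28, RPL37 and RPS18 were higher as deposited, and of these RPL26 also on rescaled values.

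In the IRF1 experiment the outcome turned on the scale. As deposited, 0 of 77 tested members were higher and 1 was lower by limma, where 5.76% of all tested genes were higher and 18.5% lower, and 3 members had an unadjusted p under 0.05. On rescaled values 62 of 79 were higher and 1 lower, against 35.3% and 29.4% of all genes, and the median log2 fold of the members was 0.22 beside 0.03 for all genes. In the deposited values the median standard error of a member was 0.14, compared with 0.044 after rescaling, while the median fold was 0.10. Leaving out any 1 library left 58 to 64 members higher after rescaling, and without control library 1 the deposited values gave 12. In the large subunit 35 of 47 members rose on rescaled values (median 0.20), and in the small subunit 27 of 32 (median 0.22).

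The largest rescaled rise after IRF1 silencing was that of RPS3A, with 512, 505 and 493 in controls and 657, 782 and 646 with IRF1shRNA. Its groups did not overlap, and the log2 fold was 0.46 (SE 0.063, adjusted p = 4.96e-05), compared with 0.34 (SE 0.15, adjusted p = 0.0839) as deposited. RPLP0, the core of the stalk, measured 1214, 1194 and 1235 in controls and 1660.3, 1609 and 1618 with IRF1shRNA, a log2 fold of 0.42 (SE 0.038). RPLP2 rose by 0.36 and RPLP1 by 0.29, so all 3 stalk genes were higher on this scale. RPS29 rose by 0.44, RPL9 by 0.39, RPS14 by 0.37, RPS27A by 0.35 and RPL3, at the peptidyl transferase center, by 0.33.

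RPS21, which led the PBRM1 experiment, was not past the test here: rescaled TPM was 7507, 7894 and 7914 in controls and 8175, 8233 and 8172 with IRF1shRNA, a log2 fold of 0.08 (SE 0.041, adjusted p = 0.119). RPL13, lower with PBRM1shRNA, was higher with IRF1shRNA at 0.27 (rescaled).

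In MDA-MB-436 cells the members split. With DOX 8 of 79 tested members were higher and 18 lower as deposited, where 27% of all genes were higher and 23.4% lower, and 8 were higher and 21 lower on rescaled values (26.2% and 25.1% of all genes). The share of members that fell was close to that of all genes and the share that rose was below it. The median log2 fold was -0.03 as deposited and -0.04 rescaled, close to the all-gene medians of 0.02 and 0.00. These counts moved with single libraries and with the model: without the mean-variance trend 3 members were higher and 11 lower as deposited, without DOX library 1 or 3 the number higher was 3 or 5, and without vehicle library 1 the number lower was 12.

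As deposited, 13 of 47 large-subunit and 5 of 32 small-subunit members were lower with DOX, beside 23.4% of all genes, and the difference between the subunits was not tested. RPL7 measured 1392, 1399.5 and 1288 TPM as deposited with vehicle and 1039.98, 1035 and 1036 with DOX, far apart, with a log2 fold of -0.39 (SE 0.038, adjusted p = 5.08e-05). RPLP1 fell from 268, 249 and 266 to 210.4, 200.5 and 219, a log2 fold of -0.31 (SE 0.045), and RPLP0 fell by 0.12, while RPLP2 at -0.11 (adjusted p = 0.358) was not past the test. RPS27, a zinc-finger protein of the small subunit, fell by 0.24, RPS20 by 0.20, RPS12 by 0.14 and RPS6 by 0.12 on the log2 scale. The rescaled folds of these genes kept their sign and their call.

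The lowest folds belonged to members listed near the floor. RPL17 measured 3.66, 2.91 and 3.94 TPM with vehicle and 2.32, 1.72 and 1.34 with DOX (log2 fold -0.70, SE 0.16), and RPL36A 6.55, 7.09 and 5.88 against 4.09, 4.56 and 3.60 (-0.56, SE 0.11). Their annotated genes overlap the readthrough genes RPL17-C18orf32 and RPL36A-HNRNPH2 on the same strand, and how reads were divided between such genes is not given in the sources used here, so these values are uncertain.

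RPS21 rose with DOX as well: 2540.4, 2461 and 2802 TPM with vehicle and 3088, 3160 and 3080.3 with DOX, without overlap, a log2 fold of 0.26 (SE 0.049, adjusted p = 0.00206). RPL23A, RPL29, RPL13A, RPL41 and RPS23 were also among the 8 members higher as deposited, with smaller log2 folds (RPL23A 0.14, RPL29 0.14, RPL13A 0.13, RPL41 0.10, RPS23 0.10). After rescaling RPL13A (0.11, adjusted p = 0.0513) was no longer past the test and RPL22 (0.10, adjusted p = 0.0471) was.

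**Figure D3:**
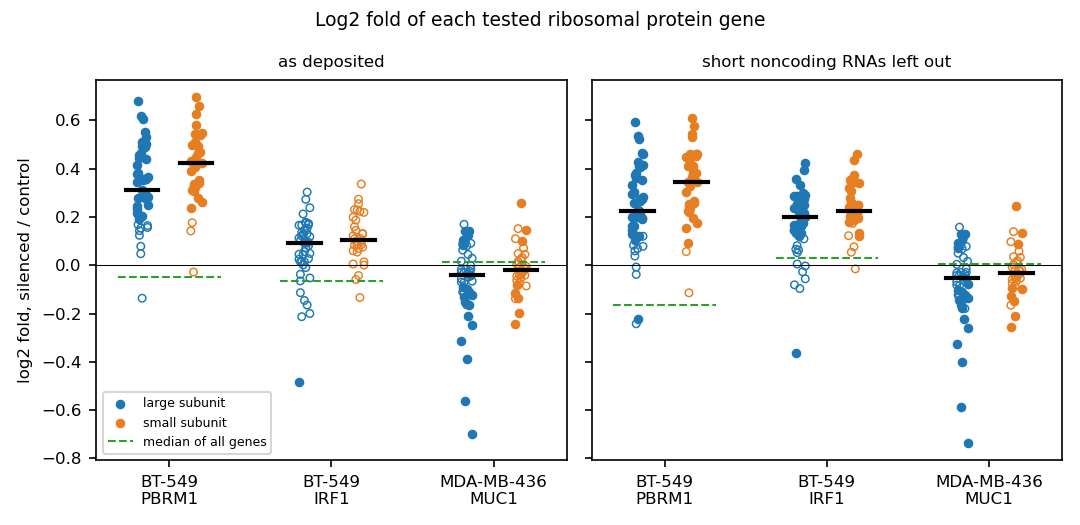
Log2 fold (silenced over control) of each tested ribosomal protein gene, as deposited on the left and without short noncoding RNAs on the right. Blue points are large-subunit and orange points small-subunit genes, filled where the adjusted p is under 0.05; black bars are subunit medians and green dashed lines the median of all genes. On each side 77 PBRM1 folds lie above the green line, IRF1 points are filled mainly on the right, and MUC1 points lie on both sides of 0.

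RPL22 and its paralog RPL22L1 moved apart in the PBRM1 experiment. RPL22, an RNA-binding large-subunit protein, measured 386, 366 and 389.5 rescaled TPM in controls and 518, 505 and 516 with PBRM1shRNA, a log2 fold of 0.43 (SE 0.036). RPL22L1 measured 62.4, 63.6 and 61.7 in controls and 34.9, 30.4 and 35.4 with PBRM1shRNA, a log2 fold of -0.88 (SE 0.056, adjusted p = 3.41e-08). Neither gene's groups overlapped. In the IRF1 experiment RPL22 rose by 0.25 while RPL22L1 was at -0.04 (adjusted p = 0.517), and with DOX RPL22L1 was at 0.03 (adjusted p = 0.766).

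The upstream bases of the pair differ in the searched motifs. The 120 bases before each annotated start are shown, with the only match in capitals.

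RPL22, chr1:6199596-6199715, minus strand: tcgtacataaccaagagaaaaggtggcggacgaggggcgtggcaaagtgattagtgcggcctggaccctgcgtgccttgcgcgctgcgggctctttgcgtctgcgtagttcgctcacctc
RPL22L1, chr3:170870196-170870315, minus strand: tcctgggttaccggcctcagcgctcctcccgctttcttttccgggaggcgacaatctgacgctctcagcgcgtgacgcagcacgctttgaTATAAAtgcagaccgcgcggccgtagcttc

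RPL22L1 held TATAAA and RPL22 held none of the 6 motifs in these bases.

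RPL36AL, the paralog of RPL36A, rose with PBRM1shRNA and fell with IRF1shRNA: rescaled TPM was 746, 734 and 757 in controls and 1009, 1059 and 1021 with PBRM1shRNA (log2 fold 0.47, SE 0.035), and 854, 837 and 844 in controls and 690.2, 614 and 639 with IRF1shRNA (-0.38, SE 0.046). RPL36A itself stayed between 2.89 and 5.16 rescaled TPM in BT-549 cells. RPL39L rose with PBRM1shRNA by 0.46 on rescaled values (0.53 as deposited) and fell by 0.25 with DOX as deposited. RPL39 rose with PBRM1shRNA by 0.19 on rescaled values (0.28 as deposited) and was at -0.04 (adjusted p = 0.478) with DOX. RPS27L, a p53 target, was not past the test in any experiment without the replicate block, whereas RPS27 rose by 0.15 with PBRM1shRNA and by 0.18 with IRF1shRNA on rescaled values and fell with DOX. RPL10L was listed at 0 in the IRF1 and MDA-MB-436 libraries and RPL3L in the MDA-MB-436 libraries, and neither exceeded 0.26 rescaled TPM in any library. RPL7L1 rose with IRF1shRNA (0.28, rescaled) and DOX (0.20, rescaled), and RPL26L1 was not past the test in any experiment.

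FAU, whose product is a fusion of a ubiquitin-like protein with RPS30, went with the members in BT-549 cells. On rescaled values FAU rose by 0.34 with PBRM1shRNA and by 0.22 with IRF1shRNA. With DOX FAU rose by 0.16 (rescaled).

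**Figure D4:**
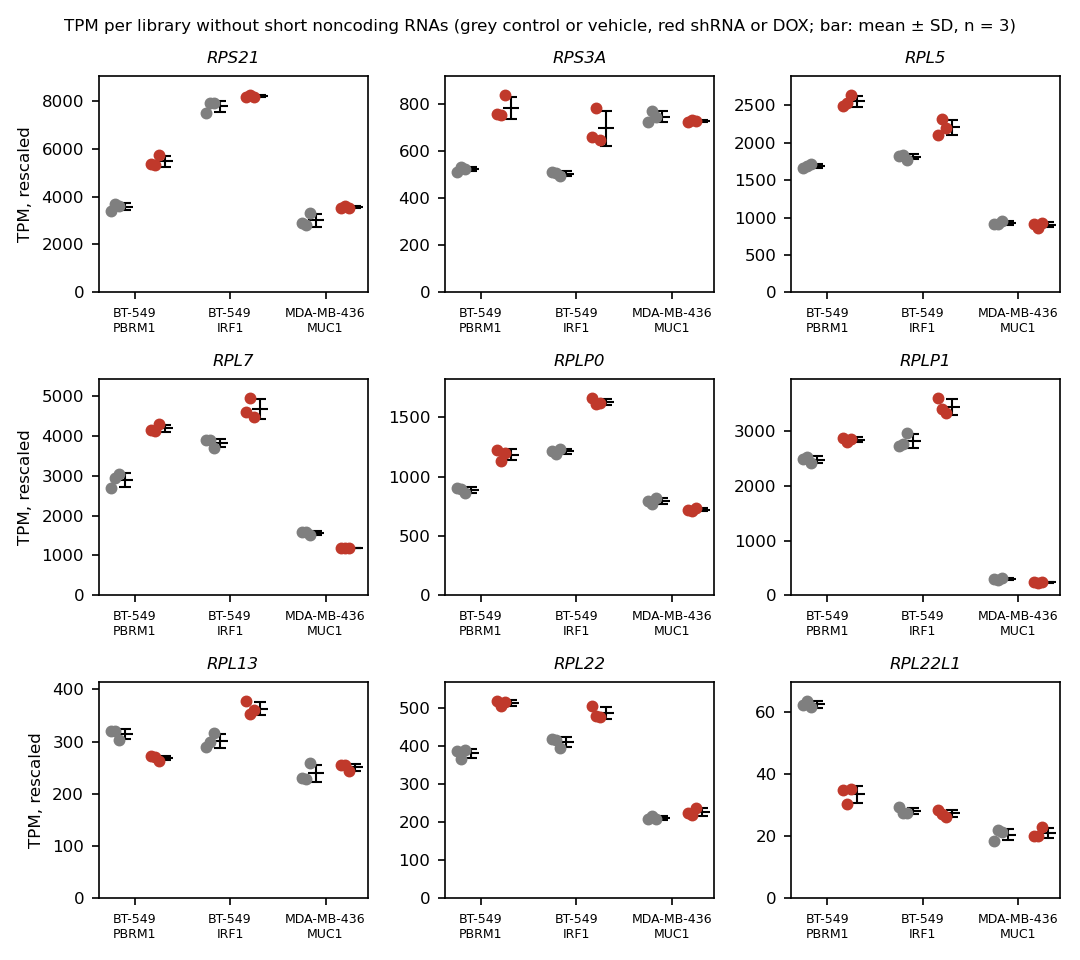
Rescaled TPM (y axes from 0) of 8 ribosomal protein genes and the paralog RPL22L1 in each library, grey for control or vehicle and red for shRNA or DOX, with mean ± SD of 3 libraries. RPL5 and RPS21 rise most with PBRM1shRNA, RPL13 falls with PBRM1shRNA, RPL7 falls with DOX, and RPL22L1 falls with PBRM1shRNA while RPL22 rises.

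Levels were compared within the unsilenced libraries as each gene's percentage of the summed ribosomal protein TPM, a length-corrected share that does not depend on the scale. The 10 most abundant members held 31.2% of it in the PBRM1 controls, 35.2% in the IRF1 controls and 43.9% in MDA-MB-436 vehicle libraries. Across the 81 members the log levels of the BT-549 control groups correlated at r = 0.98 (Spearman rho 0.96). Those of BT-549 and MDA-MB-436 correlated at r = 0.88 in both cases, with lower rank correlations (Spearman rho 0.755 for the PBRM1 controls and 0.773 for the IRF1 controls). These values describe genes of different length and copy number.

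RPS6 (4.32% ± 0.011, SD, n = 3), RPL37A (4.23% ± 0.012) and RPL8 (3.32% ± 0.10) led in the PBRM1 controls, and RPS21 (4.66% ± 0.059), RPL37A (4.40% ± 0.020) and RPL39 (3.92% ± 0.063) in the IRF1 controls. In MDA-MB-436 vehicle libraries RPS28 led at 9.25% ± 0.30, followed by RPS4X (5.19% ± 0.12) and RPS7 (4.73% ± 0.035). RPS28 took 1.46% in the PBRM1 controls and 3.61% in the IRF1 controls, so that the same line differed between experiments as well. The 5 members with the lowest levels in each table were RPL3L, RPL10L, RPS10, RPL17 and RPL36A.

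Between the lines, the shares of RPLP1 and RPLP2 differed, and that of RPLP0, the core of the stalk, was similar (0.70% and 0.73% in BT-549, 0.757% in MDA-MB-436). RPLP1 held 1.97% and 1.69% of ribosomal protein TPM in the BT-549 control groups and 0.287% in MDA-MB-436, and RPLP2 held 1.24% and 1.51% against 0.169%. RPL36 showed the lowest ratio of MDA-MB-436 to BT-549, at 0.072, and RPS7 the highest, at 5.44, with RPS4X at 3.92 and RPL31 at 3.67. The lines were profiled in separate experiments, so line and experiment cannot be told apart in these shares.

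**Figure D5:**
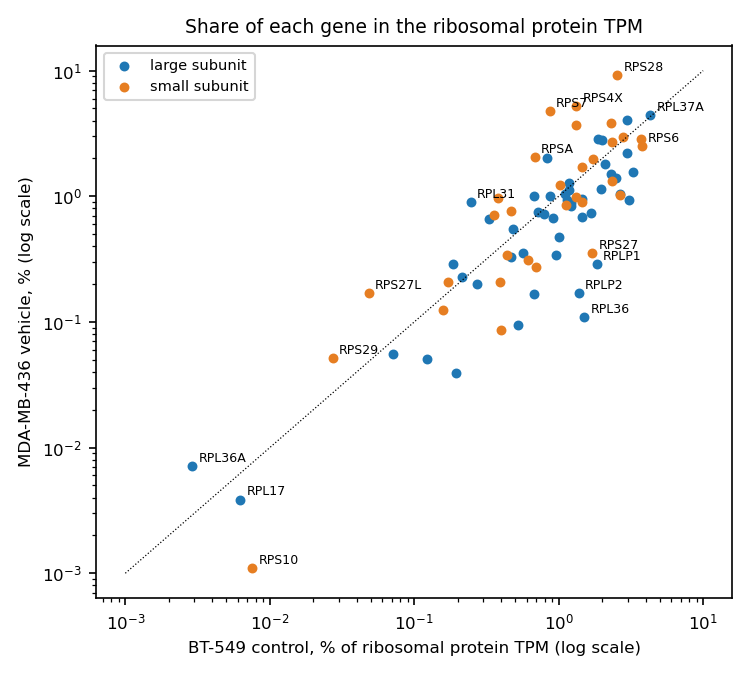
Share of each gene in the summed ribosomal protein TPM, mean of both BT-549 control groups (x axis) against MDA-MB-436 vehicle libraries (y axis), both in percent on log scales; the dotted line marks equal shares and RPL3L and RPL10L are not drawn. RPS28, RPS7 and RPS4X lie above the line, and RPLP1, RPLP2, RPL36 and RPS10 below it.

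Genes of the same pathway were read on rescaled values, where 22% of all genes rose and 50.7% fell with PBRM1shRNA, 35.3% and 29.4% with IRF1shRNA, and 26.2% and 25.1% with DOX. The IRF1 counts turned on the scale for these lists too, so the deposited ones are given beside them. Of 11 tested non-ribosomal mRNAs known to carry a TOP tract, 10 rose and 0 fell with PBRM1shRNA (median log2 fold 0.23), 7 rose and 0 fell with IRF1shRNA (0.17, with 2 and 0 as deposited), and 4 rose and 4 fell with DOX (0.03). Of 8 elongation factors 6 rose and 1 fell in each BT-549 experiment (1 and 1 as deposited with IRF1shRNA), and 0 rose and 5 fell with DOX. EEF1A1, the abundant factor that brings aminoacyl-tRNA to the ribosome, rose by 0.28 with PBRM1shRNA and by 0.32 with IRF1shRNA and fell by 0.17 with DOX. EEF1A2 went the other way with PBRM1shRNA (-0.83).

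Factors that build ribosomes did not go with the ribosomal proteins in the PBRM1 experiment. Of 56 tested genes of pre-rRNA processing and assembly, 42 fell and 5 rose (median log2 fold -0.31), beside 50.7% of all genes that fell. With IRF1shRNA 28 of 58 rose and 7 fell (0.11), against 4 and 3 of 56 as deposited, and with DOX 20 of 58 rose and 9 fell (0.08). Of 21 genes of RNA polymerase I and its factors, 12 fell and 2 rose with PBRM1shRNA, the fallen share being near the 50.7% of all genes. In this list 3 fell and 6 rose with IRF1shRNA (0 and 1 of 20 as deposited), and 2 fell and 9 rose with DOX. MYC, a general activator of ribosome synthesis, fell with PBRM1shRNA (-0.67) and with IRF1shRNA (-0.20, and -0.28 with adjusted p = 0.159 as deposited) and rose with DOX (0.39). LARP1, which binds TOP mRNAs, fell with PBRM1shRNA (-0.39) and DOX (-0.23) and was at -0.05 (adjusted p = 0.262) with IRF1shRNA.

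The remaining lists were mixed. Of 12 snoRNA host genes without a ribosomal protein, 8 fell and 3 rose with PBRM1shRNA, 3 fell and 2 rose with IRF1shRNA (0 and 1 as deposited), and 6 fell and 1 rose with DOX. Initiation factors rose in 11 and fell in 5 of 26 with PBRM1shRNA, in 13 and 4 with IRF1shRNA (2 and 1 as deposited) and in 7 and 8 with DOX. Of mTOR pathway and TOP-binding genes 4 of 15 rose and 5 fell with PBRM1shRNA, 7 of 14 rose and 5 fell with IRF1shRNA (1 and 2 as deposited), and 6 of 15 rose and 6 fell with DOX. Of 15 chaperones and importers of ribosomal proteins 7 rose and 3 fell with PBRM1shRNA, 8 and 2 with IRF1shRNA (1 and 2 as deposited), and 3 and 3 with DOX. Of 12 ribosome quality-control genes 2 rose and 8 fell with PBRM1shRNA, 7 and 3 with IRF1shRNA (0 and 0 as deposited), and 2 and 1 with DOX.

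The 81 members lie on 21 chromosomes, with 12 on chromosome 19 and 8 on chromosome 3 (GENCODE, GRCh38). Named pseudogenes were annotated for 76 of them, 1133 in all, with 74 for RPSA and 61 for RPL7. Near-identical copies can take reads from the parent gene, and the treatment of such reads is not given in the sources used here, so levels of these members are uncertain to an extent that was not tested.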

How the data were processed

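The authors deposited 3 tables of TPM, 1 per experiment, with 1 column per library (18 libraries), and 3 tables of DESeq2 results, of which the mean normalized count (a signal averaged over libraries) was read and the fold changes and p-values were not used. Per the labels, libraries were prepared from triplicate cultures. The submitters' processing notes name STAR and GRCh38. Gene annotation and TPM program were not given in the sources used here. In the table for PBRM1, the 3 control columns match no single label and were assigned to their group. No other columns were left unused (0).

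Values were analysed as log2(TPM + 1) for genes with at least 1 TPM in at least 3 of 6 libraries, with limma 3.58.1 in R 4.3.3 (two-sided, with a mean-variance trend, and Benjamini-Hochberg adjusted over all genes tested), separately per experiment. Fold changes are on this scale, which understates changes of low genes. For deposited BT-549 values limma estimated infinite prior degrees of freedom, so that standard errors depend on a gene's level alone, and after rescaling 7.84 in both experiments. Short noncoding RNAs were recognised by symbol. "Rose", "fell", "higher" and "lower" for a gene mean an adjusted p under 0.05. Named genes were, per experiment and subunit, the 4 largest folds in each direction without overlap, members with fixed roles, paralogs and the highest and lowest members. Members and lists were chosen with earlier results of these data known. The fit was tested on simulated data. In the PBRM1 table, deviations from the group mean correlated at 0.455, 0.309 and 0.290 for same-numbered libraries. For other pairs of libraries they correlated at -0.377 to 0.114. The numbers ending the column names may thus pair the libraries, though no label says so. The main fits held no block, and the pairing entered only the replicate-block runs. Some results are not reported here.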

Additional observations from a re-analysis of the deposited data

How the results depend on the processing

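TPM keeps no depth, 3 libraries per group limit each estimate, and p-values of deposited BT-549 values rest on a spread shared by genes of similar level. Other scalings left the PBRM1 rise in place, with 50 (quantile) to 76 (trimmed mean) members higher. Its count of members lower was 1 without short noncoding RNAs (by symbol or RefSeq type, and without trend), with median-ratio scaling and with array weights, and 4 with quantile scaling. The IRF1 outcome depended on scaling: members higher numbered 0 as deposited, 62 without short noncoding RNAs by either definition, 60 when the trend was also dropped, 50 with trimmed-mean, 49 with median-ratio and 57 with quantile scaling, 48 with array weights and 1 without trend. IRF1 members lower numbered 2 with trimmed-mean and median-ratio scaling, 3 with quantile scaling and 18 with array weights. With DOX, members higher fell from 8 to 4 with no filter, 3 without trend and 2 without trend and short noncoding RNAs, and members lower from 18 to 11 without trend. The causes were not tested.

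The median log2 fold of the large minus the small subunit stayed negative in every alternative run. It was -0.11 in the PBRM1 experiment (-0.0859 with quantile scaling), -0.01 in the IRF1 experiment (-0.0281 with quantile scaling, -0.0282 with no filter, -0.0298 with array weights) and -0.02 with DOX. The log2 fold of the summed ribosomal protein TPM was 0.36 with PBRM1shRNA, 0.28 without short noncoding RNAs by either definition and 0.18 with quantile scaling. With IRF1shRNA it was 0.0679 as deposited, 0.187 without short noncoding RNAs by either definition, and 0.148, 0.138 and 0.134 with trimmed-mean, median-ratio and quantile scaling. With DOX it was -0.01 as deposited, -0.0244 without short noncoding RNAs (-0.0243 by RefSeq type), and -0.0274, -0.0331 and -0.0353 with trimmed-mean, median-ratio and quantile scaling. Pseudocount, filter, trend, weights and block do not enter this sum.

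Leaving out 1 library at a time, over deposited and rescaled values together, gave 55 to 68 members higher and 0 to 2 lower with PBRM1shRNA, 0 to 64 and 0 to 2 with IRF1shRNA (higher, 0 to 12 as deposited and 58 to 64 rescaled), and 3 to 11 and 12 to 22 with DOX. The large minus small median ranged from -0.131 to -0.0864, -0.0404 to -0.00407 and -0.0454 to -0.00273, and the log2 fold of the sum from 0.261 to 0.397, -0.0243 to 0.201 and -0.0377 to -0.00506. Combining rescaling with a dropped trend or a left-out library was chosen after seeing the data.

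With the library number as a replicate block, 74 members were higher and 1 lower with PBRM1shRNA as deposited, and 69 and 3 on rescaled values. With the block and rescaling together 63 members were higher with IRF1shRNA, and the block moved no other count of members by over 1.5 times. Same-numbered libraries of the IRF1 and MUC1 experiments correlated at -0.21 to 0.23 and share only a number. Of the named genes, RPL10 in the PBRM1 experiment reversed to -0.0424 with quantile scaling, RPS4X with DOX to -0.0724, and RPL39 with IRF1shRNA ranged from -0.14 to 0.17 over the left-out libraries, the highest without IRF1shRNA library 3 and the short noncoding RNAs.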
